A study of Mus musculus with 2 samples.

Results

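The 10 genes described here, Ccl2, Ccl7, Ccl12, Ccl8, Ccl11, Ccl3, Ccl4, Ccl5, Ccl6 and Ccl9, encode CC chemokines. They were chosen by name, out of 31054 genes in the count matrices, and their levels played no part in the assignment of cells. All 10 had UMIs (unique molecular identifiers, each standing for 1 captured transcript) in the early repair callus, and all 10 reached 50 CPM (UMIs of a gene per 1000000 UMIs of the cells summed) in at least 1 class of 50 cells or more.

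The data are single-cell RNA sequencing (scRNAseq) of mouse rib callus at 4 days post injury (dpi), after resection of a rib segment. The control library came from Sox9:CreER;R26:tdT;Smof/+ mice and the Smo cKO library from Sox9:CreER;R26:tdT;Smof/f mice. Each was 1 library pooled from 3 animals, and the study used mice of both sexes aged 8 to 12 weeks. Both genotypes carried the tamoxifen-inducible Cre, which acts in Sox9-expressing cells and their descendants, the tdT reporter of that lineage, and at least 1 floxed allele of Smo, the transducer of Hedgehog signals. According to the study, tamoxifen was given in the week before surgery. The transgene is meant to place the deletion in that lineage, and recombination was not measured by cell class here, so the libraries are compared as whole calluses.

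Chemokines are small secreted proteins that draw leukocytes along a gradient, and the CC family is named for adjacent cysteines near the start of the mature protein. They act on G protein-coupled receptors, and both ligands and receptors overlap in their partners. Ccl2, Ccl7 and Ccl12 act on Ccr2 and bring monocytes out of the marrow and into tissue. Ccl3, Ccl5, Ccl6 and Ccl9 act on Ccr1, a receptor of monocytes, neutrophils and osteoclast precursors. In bone repair, the early inflammatory phase brings in macrophages, and monocytes are also precursors of osteoclasts.

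After removal of cells with under 200 genes or with 10% or more mitochondrial UMIs, 10057 control and 9507 Smo cKO cells remained, with median depths of 8367 and 9092 UMIs. Marker genes placed 16906 of these 19564 cells (86.4%) in 17 classes, called "-like" here because they rest on markers alone, and 1156 of them had a narrow lead over the next class. Smo itself was low, at 19.4 CPM (95% Poisson interval 18.4 to 20.4) in connective-like cells of the control library and 13.3 (12.4 to 14.2) in those of the Smo cKO library. The deposited matrices do not tell deleted from intact Smo transcripts, so these counts do not measure recombination. There were 599 barcodes found in both libraries, with a median of 806 UMIs in the control copies and 30939 in the Smo cKO copies. Without them, the largest change in a member's log2 ratio in its leading class was 0.23. With 1 library per genotype there is no test between genotypes, and every interval below is a 95% interval that covers counting error only.

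All 10 genes lie on mouse chromosome 11 (build GRCm38). The first group spans 81229 bp (82035571 to 82116799) and holds Ccl2, Ccl7, Ccl11, Ccl12 and Ccl8, all on the plus strand. A gap of 1408978 bp separates it from the second group of 138906 bp (83525778 to 83664683), in which Ccl5, Ccl9, Ccl6 and Ccl3 lie on the minus strand and Ccl4 on the plus strand. From the first group, Ccl2 lies at 82035571 to 82037453, Ccl7 at 82045712 to 82047525, Ccl11 at 82057823 to 82062955, Ccl12 at 82101845 to 82103400 and Ccl8 at 82115185 to 82116799. From the second, Ccl5 lies at 83525778 to 83530518, Ccl9 at 83572919 to 83578636, Ccl6 at 83587882 to 83593087, Ccl3 at 83647844 to 83649355 and Ccl4 at 83662584 to 83664683. Each is a gene of 3 exons, except Ccl9 and Ccl6 with 4 in the annotation used. Promoter sequences of 5 members, Ccl12, Ccl8, Ccl9, Ccl6 and Ccl3, were matched in the RefSeq table of build GRCm38.p6. Those of Ccl12 (chr11:82101595-82101844, plus strand) and Ccl8 (chr11:82114935-82115184, plus strand) are shown because these neighbours shared a leading class and were often found in the same macrophages. Capitals mark TATAAA, searched on both strands, which begins 31 bases before the start site of Ccl12 and 32 before that of Ccl8.
Ccl12: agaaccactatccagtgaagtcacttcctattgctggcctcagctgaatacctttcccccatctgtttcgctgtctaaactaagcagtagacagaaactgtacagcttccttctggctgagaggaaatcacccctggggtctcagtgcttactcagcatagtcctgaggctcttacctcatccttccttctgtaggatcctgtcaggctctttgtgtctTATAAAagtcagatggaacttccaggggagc
Ccl8: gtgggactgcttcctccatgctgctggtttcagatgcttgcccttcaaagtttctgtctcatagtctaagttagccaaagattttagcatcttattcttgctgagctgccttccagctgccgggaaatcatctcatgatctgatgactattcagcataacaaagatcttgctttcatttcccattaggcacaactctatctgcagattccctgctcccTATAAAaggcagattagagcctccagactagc
Windows of 300 bases (250 before the start site and 50 after) held TATAAA in 13.6% of 32851 RefSeq promoters, and 3 of the 5 matched members had it, the other being Ccl9. A form of the kappaB motif, held by 1.63% of promoters, was matched in Ccl9 alone among the 5. The AP-1 motif TGANTCA, in 7.81% of promoters, was likewise found in Ccl9 only. A form of the interferon-stimulated response element, present in 3.44% of promoters, was in none of the 5. These are matches of letters in a window, and no binding was measured.

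The members divided by cell class, as the map of levels by class shows. Ccl2 and Ccl7 were led by connective-like cells and Ccl11 by mural-like cells. Macrophage or monocyte-like cells led Ccl12, Ccl8, Ccl4 and Ccl6. Neutrophil-like and macrophage or monocyte-like cells shared the lead for Ccl3, while osteoclast-like cells led Ccl9 and NK-like cells led Ccl5. Genomic neighbours therefore included genes led by connective, mural and macrophage classes in the first group, and by lymphoid, osteoclast and myeloid classes in the second.

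**Figure D1:**
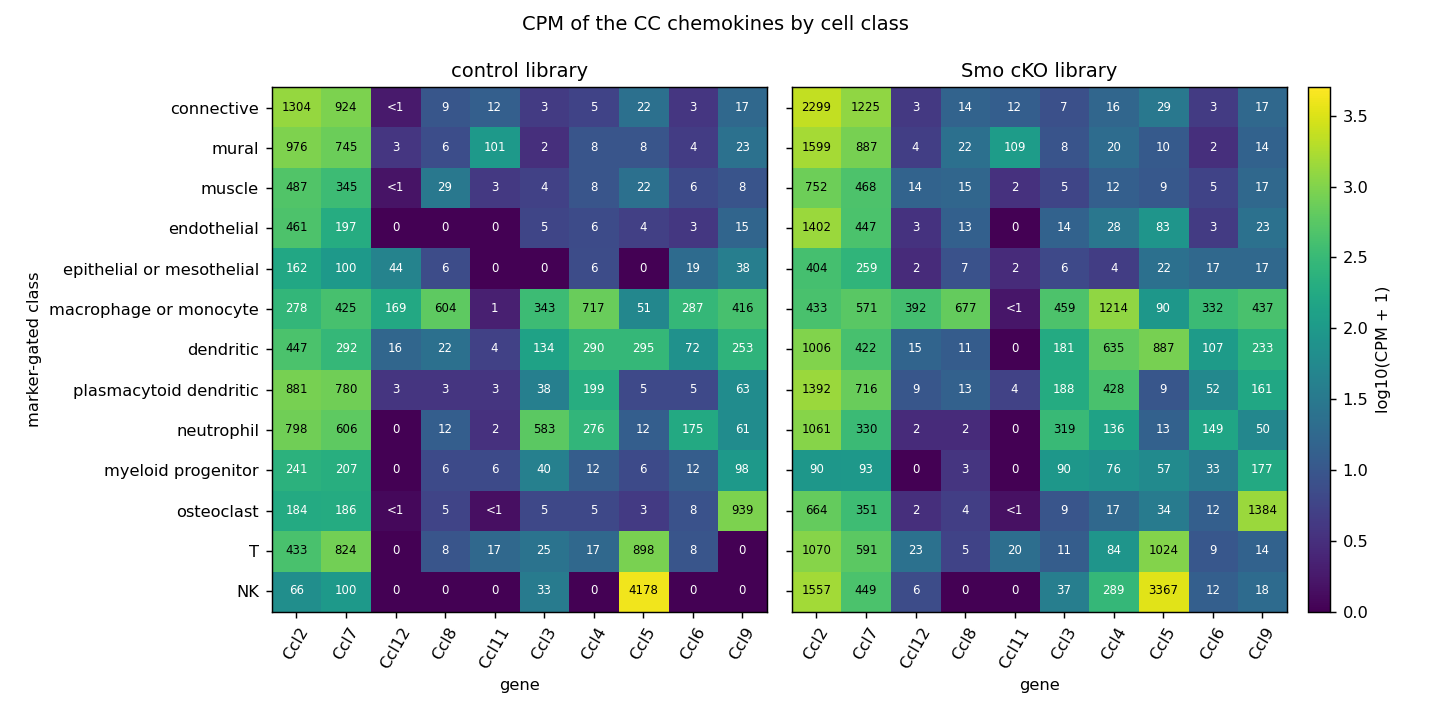
CPM of each member (columns) in the 13 marker-gated classes of at least 50 cells over both libraries (rows), control at left and Smo cKO at right. Colour is log10(CPM + 1) and the printed numbers are CPM. Ccl2 and Ccl7 are spread over every class, with the highest level in connective-like cells, whereas Ccl12 and Ccl8 stand out in macrophage or monocyte-like cells alone.

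Ccl2, the main ligand of Ccr2, was highest in connective-like cells, at 1304 CPM (1296 to 1312) in the 5670 control cells and 2299 CPM (2287 to 2310) in the 4352 Smo cKO cells. The log2 ratio of Smo cKO over control was 0.82 (0.81 to 0.83). Connective-like cells held 83.5% of all Ccl2 UMIs in the control library and 74.0% in the Smo cKO library. Mural-like cells came next, with 976 and 1599 CPM, below connective-like cells in both libraries beyond the intervals. Ccl2 was detected in 86.3% and 92.2% of connective-like cells, and in 49.8% (48.4 to 51.1) and 62.3% (60.9 to 63.8) after every cell was thinned to 1000 UMIs.

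Ccl7, a broader monocyte attractant, was also highest in connective-like cells in both libraries. Mural-like cells, at 745 and 887 CPM, came next in Smo cKO, while in control T-like (824) and plasmacytoid dendritic-like cells (780) had values above them. In connective-like cells its level was 924 CPM (917 to 932) in control and 1225 CPM (1216 to 1234) in Smo cKO, a log2 ratio of 0.41 (0.39 to 0.42). Thinned detection was 45.7% and 51.0%. The genes were often found in the same cells. Of thinned control connective-like cells with Ccl2, 61.6% also had Ccl7, against 30% of those without Ccl2. The shares in Smo cKO were 63.3% and 30.7%. Levels of both genes differed among the connective subsets described below, whose part in these shares was not tested.

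Both ratios moved with the depth of the cells, which also differed among the connective subsets described below. In connective-like cells of 500 to 5000 UMIs the log2 ratio of Ccl2 was 0.32, and it was 0.41, 0.90 and 1.03 in cells from 5000, from 10000 and from 20000 UMIs. For Ccl7 the values were 0.04, -0.03, 0.54 and 0.80. Ccl7 was therefore higher in the Smo cKO library beyond counting error only in connective-like cells of 10000 UMIs or more, and it was lower (-0.18, -0.23 to -0.13) when cells with more than 2000 genes were left out as in the methods of the study.

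Neither gene reached 2-fold in the class as a whole. Of 2563 genes at 50 CPM or more in connective-like cells, 0.858% differed at least 2-fold in either direction and 63.6% were higher in Smo cKO by any amount. The 2 members above that level, Ccl2 and Ccl7, had a median log2 ratio of 0.61, where all genes had 0.06. Both members being higher is close to the background in a class where most genes were.

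Levels of Ccl2 differed by connective subset in both libraries. In Sfrp4 Eln Col14a1 fibroblast-like cells, which carry elastic-fibre and adventitial matrix genes, Ccl2 was at 2148 CPM in control and 3298 in Smo cKO. In Tnc Inhba fibroblast-like cells, marked by genes of injury-activated fibroblasts, it was at 1106 and 2240 CPM, and in tenocyte-like cells at 1167 and 2125. The Fmod Acan Col11a1 skeletogenic-like cells, with cartilage-type matrix genes, had 591 and 1535 CPM. The 12 control and 15 Smo cKO osteoblast-like cells had the lowest levels in both libraries, 223 and 763 CPM.

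Ratios ran in the opposite order to control levels, which are their denominators, across the 4 larger subsets. The log2 ratio of Ccl2 was 0.62 (0.60 to 0.64) in Sfrp4 Eln Col14a1, 0.86 (0.81 to 0.91) in tenocyte, 1.02 (1.00 to 1.04) in Tnc Inhba and 1.38 (1.33 to 1.42) in Fmod Acan Col11a1 cells. For Ccl7 it was 0.14, 0.50, 0.83 and 1.14 in the same order. Beyond 2-fold were Ccl2 in Tnc Inhba cells, where 1.36% of genes were, and both genes in Fmod Acan Col11a1 cells, where 1.34% were. Neither gene was in Sfrp4 Eln Col14a1 cells (2.22% of genes) or tenocyte-like cells (1.12%). Sfrp4 Eln Col14a1 cells numbered 2041 in control and 970 in Smo cKO, so the mix also shifted. At 1 shared mix of subsets the class ratios were 0.90 for Ccl2 and 0.55 for Ccl7. Median depth in control and Smo cKO was 7860 and 8710 UMIs in Sfrp4 Eln Col14a1 cells and 13116 and 13646 in tenocyte-like cells. It was 16142 and 17364 in Tnc Inhba cells and 11732.5 and 11857 in Fmod Acan Col11a1 cells. The parts of depth and of subset in these ratios were not told apart.

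**Figure D2:**
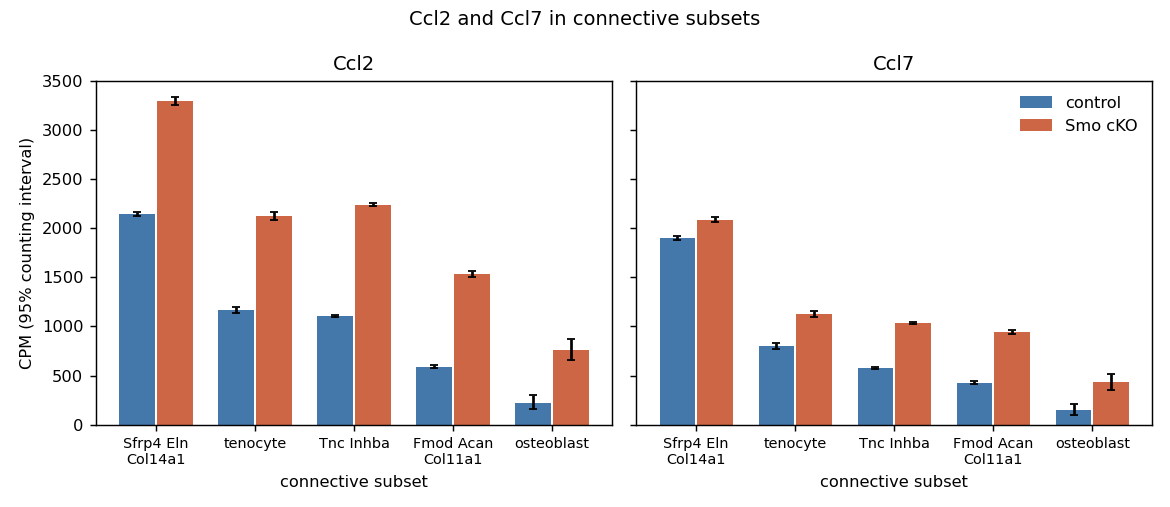
CPM of Ccl2 (left) and Ccl7 (right) in the 5 connective subsets of the control (blue) and Smo cKO (orange) libraries. Bars are UMIs summed over the cells of a subset and error bars are 95% counting intervals. Bars are highest in Sfrp4 Eln Col14a1 cells and the gap between libraries is widest, relative to the control bar, in Fmod Acan Col11a1 and osteoblast cells.

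Connective-like cells were the most numerous class and the richest in Ccl2 and Ccl7, and both genes were found in every class of the map. To gauge how far carried-over connective RNA could give such levels, 8 connective genes that were not used for the classes served as tracers. These were Sparc, Bgn, Fstl1, Col5a1, Col6a1, Col6a2, Serpinh1 and Mmp2. Their median level in a class, relative to connective-like cells, was taken as the share carried over. For neutrophil-like cells of the control library this predicts 800 CPM of Ccl2 and 568 of Ccl7. The observed levels were 798 (715 to 887) and 606 (535 to 685). In Smo cKO neutrophil-like cells, 1061 CPM of Ccl2 (975 to 1151) was observed, above the predicted 770 and the 1009 that the highest tracer gives, and 330 of Ccl7 lay below the predicted 411. In muscle-like cells 525 and 372 CPM were predicted and 487 and 345 observed in control, and 838 and 446 predicted against 752 and 468 observed in Smo cKO. Apart from Ccl2 in Smo cKO neutrophil-like cells, no value of Ccl2 or Ccl7 in the neutrophil and muscle classes was above that of the highest tracer. Those levels are therefore not read as expression by these classes. A tracer that a class makes itself would raise the prediction for that class, and this was not tested. Few neutrophil-like cells held most of their Ccl2: 12 of 116 in control had 87.9% of the UMIs and 13 of 133 in Smo cKO had 93.5%. Tracer levels summed over a class do not tell free RNA from cells captured together, and neither was tested.

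Macrophage or monocyte-like cells had Ccl7 well above its prediction. The tracers predict 143 CPM in control and 146 in Smo cKO, and 425 (406 to 444) and 571 (554 to 589) were observed, 2.97 and 3.91 times the prediction. The excess was largest in Mrc1 Folr2 macrophage-like cells, with 142 and 106 CPM predicted and 930 and 1217 observed. Ccl2 in Mrc1 Folr2 cells was at 468 and 684 CPM against predictions of 200 and 199. In control, Ccl7 was also above what the highest tracer gives in T-like (824 CPM) and plasmacytoid dendritic-like cells (780 CPM). In Smo cKO it was below that limit in T-like cells (591 CPM) and narrowly above it in plasmacytoid dendritic-like cells (716 CPM). In endothelial-like cells of the Smo cKO library Ccl2 reached 1402 CPM (1335 to 1471), above the predicted 758 and the 984 that the highest of the 8 tracers gives. In control endothelial-like cells 461 CPM was observed, above the predicted 382 and below the 658 of the highest tracer in that library. All 3 members at 50 CPM or more in endothelial-like cells in 1 library, Ccl2, Ccl7 and Ccl5, were past 2-fold, as were 3.06% of genes. Ccl5 was at 3.97 CPM in control and 82.7 in Smo cKO, from 4 and 98 UMIs. It reached 50 CPM only in Smo cKO, so its place in this count follows from the limit itself. Ccl7 there (447 CPM in Smo cKO) was near its predicted 404.

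**Figure D3:**
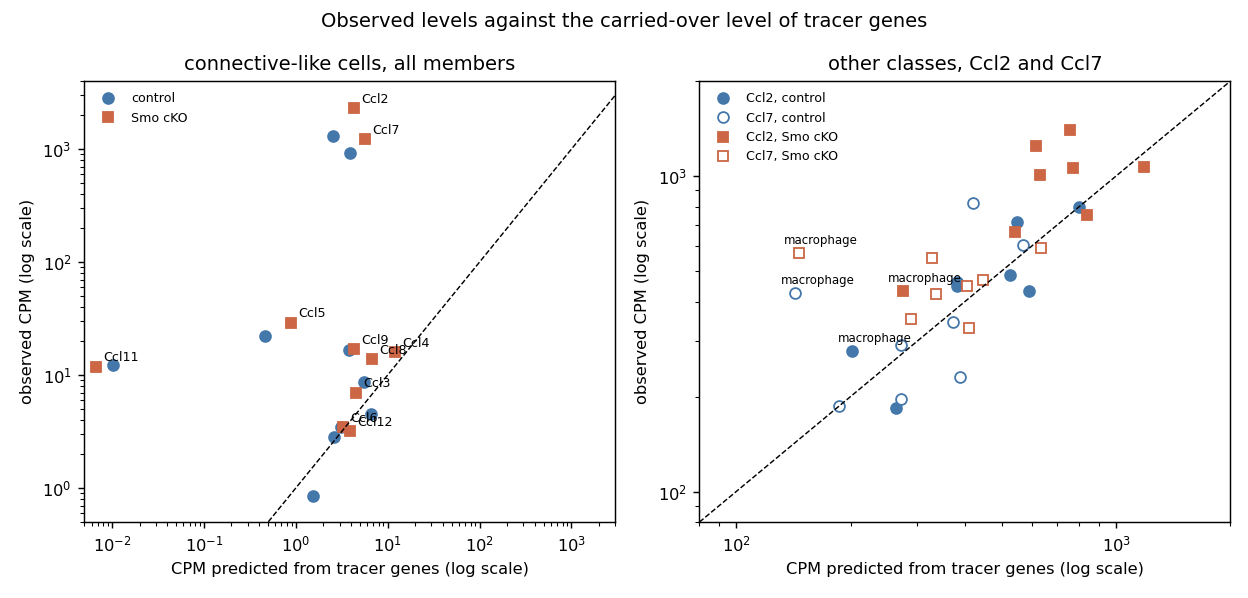
Observed CPM against CPM predicted from tracer genes of another class, both on log scales, for all members in connective-like cells with macrophage tracers (left) and for Ccl2 and Ccl7 in 8 other classes with connective tracers (right). Circles are control, squares Smo cKO, and the dashed line marks equal values. Ccl2, Ccl7, Ccl11 and Ccl5, none of them led by macrophage or monocyte-like cells, lie far above the line at left. At right the Ccl7 points of macrophage or monocyte-like cells are the farthest above it.

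Read the other way, 8 hematopoietic tracers were present in connective-like cells at 0.912% (control) and 0.989% (Smo cKO) of their macrophage level. The 5 macrophage members Ccl3, Ccl4, Ccl6, Ccl8 and Ccl12 were compared with what this predicts for connective-like cells. For Ccl6 it predicts 2.61 and 3.29 CPM, and 2.82 and 3.46 were observed. For Ccl4 it predicts 6.54 and 12.0 CPM, and 4.54 and 15.9 were observed. For Ccl3 it predicts 3.13 and 4.54 CPM against 3.46 and 6.98 observed, and for Ccl12 1.54 and 3.87 against 0.851 and 3.18. Ccl8 was farther above its prediction, at 8.72 and 13.9 CPM against 5.51 and 6.70. All 5 were below what the highest tracer gives, which for Ccl8 is 24.8 and 22.4 CPM. That limit rests on Cd14 alone, at 10.5 and 13.9 CPM in connective-like cells and 255 and 419 in macrophage or monocyte-like cells. Ccl8 was above what every other tracer gives in both libraries. In Smo cKO so were Ccl3 and, by a narrow margin, Ccl4. Ccl9 was above its prediction of 3.80 and 4.32 CPM, at 16.8 and 16.9, where the highest tracer gives 17.1 in control and 14.5 in Smo cKO. It is also an osteoclast transcript, and carry-over from osteoclast-like cells was not tested. Ccl5, at 22.3 and 29.0 CPM, was above the 2.08 and 2.99 that the highest tracer gives. Those values start from its macrophage or monocyte level of 50.7 and 90.2 CPM. NK-like cells (4178 and 3367 CPM), T-like and dendritic-like cells were higher, and carry-over from them was not tested.

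Ccl11, or eotaxin, acts on the eosinophil receptor Ccr3. It was led by mural-like cells, the pericytes and smooth muscle of vessels. Its level there was 101 CPM (84.7 to 119) in 104 control cells and 109 CPM (96.1 to 124) in 141 Smo cKO cells. A minority of mural-like cells held most of it: the top 10 in control had 73.9% of the UMIs and the top 14 in Smo cKO 78.9%. Thinned detection was 10.7% and 9.22%. The log2 ratio of 0.12 (-0.18 to 0.43) includes 0 within counting error, and it turned to -1.36 (-2.46 to -0.37) when cells with more than 2000 genes were left out. The ratio was also below 0 with a stricter gate (-0.12) and with thinned cells (-0.09), with intervals that include 0. Connective-like cells had a lower level, 12.2 and 11.9 CPM, but being numerous held 80.3% and 64.3% of Ccl11 UMIs. Within them the Sfrp4 Eln Col14a1 cells were highest, at 32.7 and 36.9 CPM, and tenocyte-like cells had 1.32 and 2.93 CPM. Macrophage or monocyte-like cells had 5 UMIs of Ccl11 in each library, among 1392 and 1896 cells.

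The remaining members belong to hematopoietic classes. In macrophage or monocyte-like cells 9 of the 10 members were at 50 CPM or more, all but Ccl11. All 9, which include the connective-led Ccl2 and Ccl7 with any carried-over RNA, had a log2 ratio above 0, and their median was 0.43. Of all 2509 genes at that level 43.2% were higher in Smo cKO and the median was -0.05. Only Ccl12 was at least 2-fold higher, and 1.75% of all genes differed that far in either direction. The processing alternatives were run in this class for the 4 members it led, Ccl12, Ccl8, Ccl4 and Ccl6. Of these, Ccl8 turned in direction when classes were taken from clusters (-0.04, -0.11 to 0.03) or when cells were thinned (-0.04, -0.16 to 0.08), and the interval of Ccl9 (0.07, -0.01 to 0.15) includes 0. The same 9 were above 0 in the Mrc1 Folr2 subset (median 0.50, with 40.4% of genes above 0) and in the Arg1 Spp1 Gpnmb subset (median 0.61, with 46.8%). Past 2-fold were Ccl12 in the first, where 4.04% of genes were, and Ccl12 and Ccl5 in the second, where 1.84% were. Ccl5 in the second was at 24.4 CPM in control and 59.4 in Smo cKO, from 31 and 185 UMIs. It reached 50 CPM only in Smo cKO, so its ratio above 0 and past 2-fold follows from the limit itself.

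Ccl12, a further ligand of Ccr2 that mice have and humans lack, was at 169 CPM (157 to 182) in control and 392 CPM (378 to 406) in Smo cKO macrophage or monocyte-like cells. The log2 ratio was 1.21 (1.10 to 1.33), and it lay between 1.05 and 1.26 under the processing alternatives. Thinned detection was 9.49% (7.95 to 11.2) in control and 19.7% (17.9 to 21.6) in Smo cKO, against 0.091% and 0.422% in connective-like cells. Most of its transcripts were in this class: macrophage or monocyte-like cells made up 4.30% of control UMIs but held 79.5% of Ccl12 UMIs, and 82.2% in Smo cKO. Mrc1 Folr2 cells were at 373 and 800 CPM, with a log2 ratio of 1.10 (0.95 to 1.25). Arg1 Spp1 Gpnmb cells were at 81.2 and 206, with a ratio of 1.34 (1.04 to 1.66).

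Ccl8, which in mice acts on Ccr8, was the member most tied to a macrophage subset. Mrc1 Folr2 macrophage-like cells, with genes of resident and scavenging macrophages, had 1779 CPM (1707 to 1853) in control and 2101 CPM (2031 to 2174) in Smo cKO. Arg1 Spp1 Gpnmb cells, with genes of wound and lipid-handling macrophages, had 144 and 213 CPM. Thinned detection was 39.4% and 40.9% in the first subset and 8.02% and 10.7% in the second. Over the class the levels were 604 and 677 CPM, a log2 ratio of 0.17 (0.10 to 0.23). Mrc1 Folr2 cells were 508 of 1392 control but 478 of 1896 Smo cKO macrophage or monocyte-like cells, and at a shared mix of subsets the ratio was 0.48. In the Ly6c2 Plac8 monocyte-like cells, 7 UMIs in 32 control cells and 164 in 82 Smo cKO cells were counted, although the shares of cells with a UMI were 9.38% and 8.54%.

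Ccl8 and Ccl12, whose promoters are shown above, were often found together. Of thinned control macrophage or monocyte-like cells with Ccl12, 47.2% had Ccl8, against 15.3% of those without, and in Smo cKO 34.4% against 14.8%. Both genes were highest in the Mrc1 Folr2 subset, and the part of the subset in these shares was not tested.

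**Figure D4:**
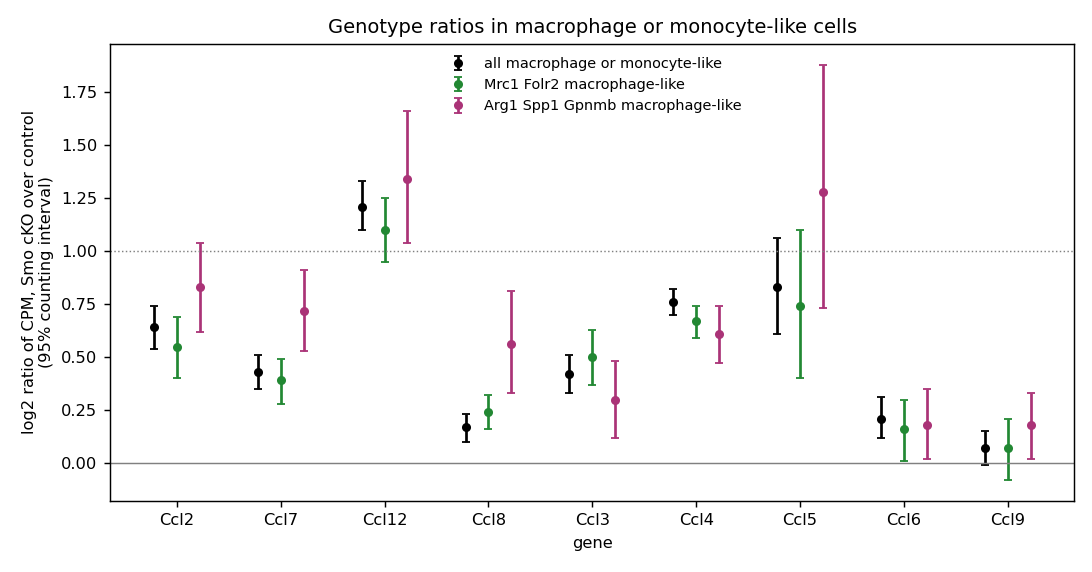
Log2 ratio of CPM, Smo cKO over control, for the 9 members at 50 CPM or more in macrophage or monocyte-like cells, for the class (black) and its larger subsets (green, purple). Points are ratios of summed UMIs, bars are 95% counting intervals, and the dotted line is 2-fold. Ccl12 lies above 1 in the class and in both subsets, and Ccl6 and Ccl9 lie between 0.07 and 0.21 throughout. Ccl8 of the class (0.17) was at -0.04 with cluster classes or thinning.

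Ccl3 and Ccl4, the macrophage inflammatory proteins, are products of activated myeloid cells, and Ccl3 acts on Ccr1. Ccl4 was at 717 CPM (692 to 742) in control and 1214 CPM (1189 to 1239) in Smo cKO macrophage or monocyte-like cells, a log2 ratio of 0.76 (0.70 to 0.82). Ccl3 was at 343 CPM (326 to 361) and 459 CPM (444 to 475), a ratio of 0.42 (0.33 to 0.51). Both were higher in Mrc1 Folr2 than in Arg1 Spp1 Gpnmb cells, Ccl4 at 1559 and 2472 against 457 and 697 CPM, and Ccl3 at 601 and 851 against 278 and 341. A small number of cells held most of Ccl4: the top 10% of macrophage or monocyte-like cells had 82.5% of its UMIs in control and 69.5% in Smo cKO. In control, 47.4% of thinned cells with Ccl3 had Ccl4 and 13.7% of those without, and in Smo cKO the shares were 62.0% and 21.7%. The part of the subsets in these shares was not tested.

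Neutrophil-like cells, 116 in control and 133 in Smo cKO, had Ccl3 at 583 CPM (512 to 660) in control and 319 CPM (273 to 371) in Smo cKO. Compared with macrophage or monocyte-like cells this was higher in control and lower in Smo cKO, so the leading class of Ccl3 depended on the library. The neutrophil log2 ratio was -0.87 (-1.16 to -0.58), and its size varied with the processing, from -1.73 with thinned cells to -0.20 (-0.40 to 0.00) with cluster classes. Ccl4 was at 276 and 136 CPM, a ratio of -1.02 (-1.46 to -0.58). It was the only member of 6 past 2-fold in this small class, where 14.2% of 2543 genes were. Of the 6, only Ccl2 was higher in Smo cKO, as were 44.2% of genes. Single cells weighed heavily, since the highest neutrophil-like cell held 35.0% of Ccl4 UMIs in control and 38.4% in Smo cKO. The 7 mast or basophil-like cells (3 and 4) held 59 and 119 UMIs of Ccl3 and 46 and 101 of Ccl4. These are 3635 and 21114 CPM of Ccl3 and 2834 and 17921 of Ccl4, and Ccl9 there was at 1047 and 6565 CPM. They are the highest levels of those genes in any class, from too few cells to compare.

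Ccl5, or RANTES, is a product of activated T and NK cells. In 13 control NK-like cells it was at 4178 CPM (3480 to 4975) and in 40 Smo cKO cells at 3367 CPM (3090 to 3661), a log2 ratio of -0.31 that became 0.28 after thinning. In T-like cells the levels were 898 CPM (737 to 1085) and 1024 CPM (932 to 1123). Dendritic-like cells had 295 CPM (270 to 323) in control and 887 CPM (838 to 939) in Smo cKO, a log2 ratio of 1.59 (1.43 to 1.74). In that class 3 of 7 members at 50 CPM or more, Ccl2, Ccl4 and Ccl5, were at least 2-fold higher, against 2.06% of all 2570 genes. The dendritic UMIs of all 3 came from few cells. The top 4 control and top 3 Smo cKO cells held 46.2% and 38.7% of Ccl5, 40.9% and 35.5% of Ccl2, and 30.8% and 37.2% of Ccl4. Thinned detection of Ccl5 was 8.42% (5.87 to 11.6) and 14.4% (10.2 to 19.5), with intervals that overlap. For Ccl4 it was 10.7% (7.83 to 14.2) and 12.3% (8.49 to 17.2), which also overlap. Ccl2 in dendritic-like cells was at 447 and 1006 CPM, where the tracers predict 382 and 630 CPM and at most 422 and 866.

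Rare connective-like cells with much Ccl5 were found in both libraries. There were 18 control and 33 Smo cKO connective-like cells with 10 or more Ccl5 UMIs, and they held 66.8% and 66.7% of the connective Ccl5. The highest had 359 and 270 UMIs. Hematopoietic tracers were at 34.8 and 22.3 CPM in these cells, against 37.4 and 54.1 CPM in the other connective-like cells, and 10 of the 18 and 25 of the 33 had no tracer UMI. In control NK-like and T-like cells the tracer UMIs were mostly of Cd52 (43 and 115 UMIs). The tracers therefore gauge RNA of these lymphoid classes, the highest in Ccl5, less well, and capture together with such cells was not tested. Their median depth was 16720.5 and 15365 UMIs, against 10615 and 13021. Connective-like cells with 10 or more UMIs of Ccl4 differed: the 18 in Smo cKO, holding 46.4% of connective Ccl4, had tracers at 581 CPM against 51.1 in the others. In control, 1 cell reached that number of Ccl4 UMIs.

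Ccl6 and Ccl9 are ligands of Ccr1 found in rodents. Ccl6 was led by macrophage or monocyte-like cells at 287 CPM (271 to 303) and 332 CPM (319 to 346), a log2 ratio of 0.21 (0.12 to 0.31), followed by neutrophil-like cells at 175 and 149 CPM. The Mrc1 Folr2 cells had 517 and 578 CPM and the Arg1 Spp1 Gpnmb cells 308 and 350.

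Ccl9 was the osteoclast member among classes of at least 50 cells. In 444 control osteoclast-like cells its level was 939 CPM (911 to 967) and in 297 Smo cKO cells 1384 CPM (1349 to 1420), a log2 ratio of 0.56 (0.50 to 0.62). Most cells of the class held it: the top 10% of cells held 40.9% and 43.8% of its UMIs, and 88.7% and 88.6% of cells had it. Osteoclast-like cells held 49.2% and 49.4% of Ccl9 UMIs. Macrophage or monocyte-like cells were at 416 and 437 CPM, with a ratio of 0.07 (-0.01 to 0.15), and dendritic-like cells 253 and 233 CPM. Ccl2 in osteoclast-like cells was at 184 CPM in control and 664 in Smo cKO, where the tracers predict 264 and 543. The control level was thus below the prediction, and the Smo cKO level was narrowly above what the highest tracer, Col6a2, gives. Ccl2 was the only member of 3 past 2-fold there, as were 1.19% of genes.

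Over 16 points (8 classes in each library) genes were ranked by how closely they followed each member on log2(CPM + 10). NK-like cells, which led Ccl5, were too few to be among the 8 classes. Ccl12 was most like Tmem106a, Fcrls and Fcgr1 (Pearson r of 0.97 each), and Ccl8 was like Fcrls (0.97). Ccl9 was most like Atp6v1f (0.98), a subunit of the proton pump, and Ccl11 like Ednra (0.97), the endothelin receptor. Ccl4 was most like Ccrl2 (0.99), a receptor-like protein that binds chemerin, and Ccl6 like Fcgr3 (0.99). Ccl7 was most like the immediate early gene Egr1 (0.92) and Cxcl1 (0.90), and Ccl2 like Myl6 (0.90). Ccl3 was most like Ncf1 (0.98), a subunit of the phagocyte oxidase, and Ccl5 like Flrt3 (0.94). Points share libraries and free RNA, and Fcgr1 is itself a marker of the macrophage or monocyte class, so these are descriptions.

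Ccr1 and Ccr2 were found on the hematopoietic side, as the map of receptors shows. In connective-like cells Ccr1 was at 0.977 CPM in control and 1.08 in Smo cKO, and Ccr2 at 0.195 and 0.453. Ccr1, for Ccl3, Ccl5, Ccl6 and Ccl9, was highest among classes of at least 50 cells per library in osteoclast-like cells, at 92.0 and 123 CPM, with 47.3% and 58.2% of cells positive. Neutrophil-like cells were at 70.8 and 87.8 CPM of Ccr1, from 30 and 47 UMIs, and Ly6c2 Plac8 monocyte-like cells at 100 and 112 CPM. The class that led Ccl9 thus also had the highest Ccr1 value among the larger classes, but its lead over neutrophil-like cells is not clear of counting error. Ccr2, the receptor of Ccl2, Ccl7 and Ccl12, was at 22.5 and 37.9 CPM in macrophage or monocyte-like cells, with 6.11% and 10.5% of cells positive. It was higher in the myeloid progenitor-like cells, at 86.0 and 158 CPM from 30 and 35 cells, and in plasmacytoid dendritic-like cells, at 54.6 and 82.9. Ly6c2 Plac8 monocyte-like cells held 14 and 42 UMIs of Ccr2 in 32 and 82 cells. NK-like cells were at 66.3 and 185 CPM of Ccr2, from only 2 and 30 UMIs in 13 and 40 cells. Ccr3 had 24 and 58 UMIs in osteoclast-like cells and 5 or fewer in connective-like cells of each library. The shares of positive cells are not thinned. Median depth was 9441 and 11794 UMIs in osteoclast-like cells and 2541.5 and 3219 in macrophage or monocyte-like cells, so these shares are not comparable between classes.

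**Figure D5:**
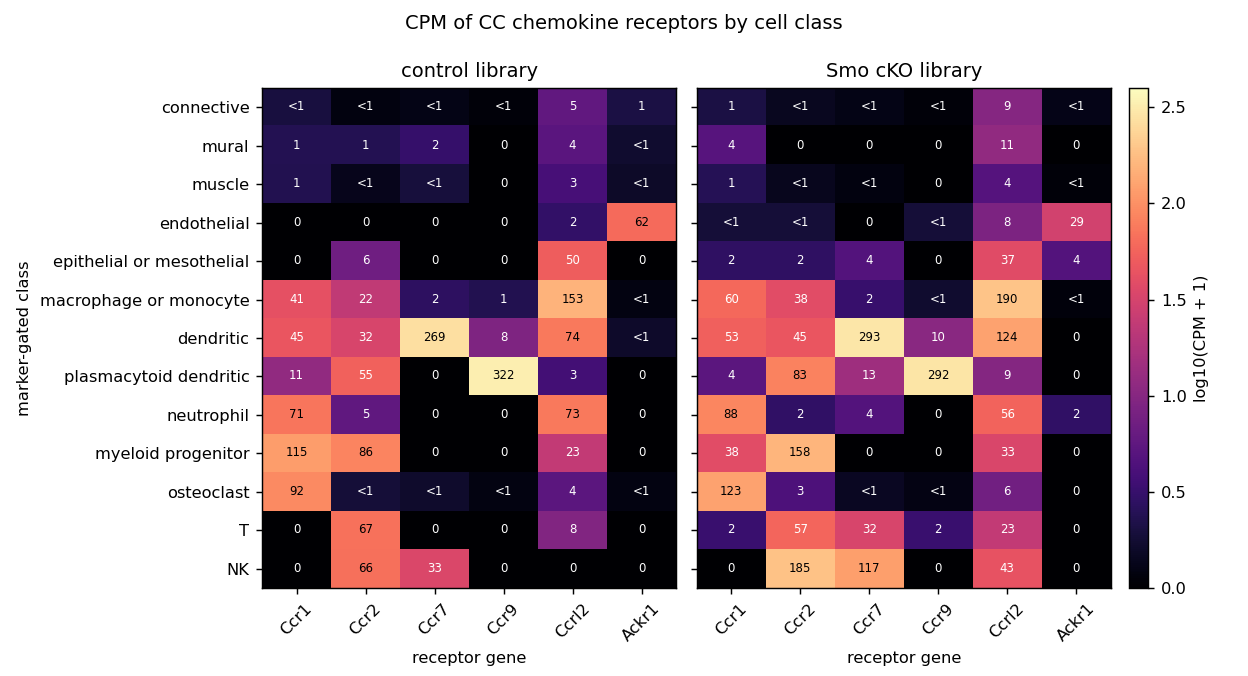
CPM of 6 CC chemokine receptors and receptor-like genes (columns) in the 13 classes (rows), control at left and Smo cKO at right. Colour is log10(CPM + 1) and the printed numbers are CPM. The top rows, which are not hematopoietic, are dark except for Ackr1 in endothelial-like and Ccrl2 in epithelial or mesothelial-like cells, and Ccr7 stands out in dendritic-like cells and Ccr9 in plasmacytoid dendritic-like cells.

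Ackr1, an atypical receptor that binds many chemokines without signalling, reached 50 CPM in endothelial-like cells only, at 61.5 CPM in control and 28.7 in Smo cKO (log2 ratio -1.10). Of 10 other CC ligands, 3 reached 50 CPM: Ccl21a in endothelial-like cells, at 1154 and 4314 CPM, and Ccl17 and Ccl22 in dendritic-like cells, at 40.2 and 69.3 and at 90.7 and 117 CPM. Ccl21a has near-identical copies, so its reads could be split by the counting and its level is uncertain. It also had 54 UMIs in Smo cKO neutrophil-like cells and none in control ones.

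Inflammatory and early-response genes were counted as the setting of these levels. Of 9 genes of NF-kB feedback and cytokines, 8 were at 50 CPM or more in macrophage or monocyte-like cells, with a median log2 ratio of 0.12. Only Il1b was past 2-fold, at 110 and 246 CPM (1.16, 1.01 to 1.31), and Tnf was at 122 and 136 CPM. In connective-like cells 11 immediate early and dissociation-induced genes summed to 2049 CPM in control and 2922 in Smo cKO, a log2 ratio of 0.51 that lies between those of Ccl7 and Ccl2. In macrophage or monocyte-like cells the same genes summed to 2604 and 2634 CPM. Their part in the levels of Ccl2 and Ccl7 was not tested.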

How the data were processed

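Single-cell libraries were made by the study on the 10x platform from pooled calluses digested with collagenase and dispase and depleted of dead cells, and per the methods reads were aligned to mm10 with Cell Ranger 3.0.2. The deposited matrices hold raw UMI counts, not normalized by the authors: the control matrix has 10747 barcodes and 105367110 UMIs, and that of Smo cKO 10512 and 112700220. The study also left out cells with more than 2000 genes, which 58.0% and 59.4% of the cells kept here have, so this was used as an alternative only. Counts were summed over cells of a class and divided by all UMIs of those cells (CPM), with exact Poisson intervals for levels, exact Clopper-Pearson intervals for shares and the exact interval of a ratio of 2 Poisson counts for log2 ratios. PCR error and differences between animals are not in these intervals.

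A cell was placed in the class with the highest mean standardized marker expression, if 3 markers had a UMI and the lead was 0.2 or more. Neither members nor chemokine receptors were markers. No doublet caller was run. The members and lists were chosen with earlier results of these data known, and the scoring rule was set after cells were seen. Genes are named by list membership at 50 CPM, and as the 3 most alike per member. The ratio script was tested on simulated data. Alternatives were the 2000-gene limit, no mitochondrial filter, a stricter gate (lead of 0.4), Leiden clusters (scanpy 1.11.5, leidenalg 0.10.2, 22 of 23 named, 92.6% of cells in the same class), scaling by the median gene, thinning to 1000 UMIs, a minimum of 100 CPM and removal of shared barcodes. Coordinates are from GENCODE, promoters from RefSeq. A receptor among those counted is not reported here.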

Additional observations from a re-analysis of the deposited data

Results flagged for a closer look

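In neutrophil-like cells 3 members were flagged as lower in the Smo cKO library while higher in other classes. They were Ccl7 (log2 ratio -0.88, higher in 7 other classes), Ccl3 (-0.87, higher in 2 others) and Ccl4 (-1.02, higher in 2 others). Ccl6 (175 and 149 CPM) and Ccl9 (61.4 and 50.4 CPM) had lower values there too. Of 2543 genes at 50 CPM or more in this class, only 44.2% were higher in Smo cKO, and 14.2% differed at least 2-fold. The Ccl7 level there is not read as expression, as stated above. The difference between classes was not tested, since each genotype is 1 library. The 8 connective tracers summed to 10784 CPM in control and 6587 CPM in Smo cKO neutrophil-like cells. The hematopoietic tracers summed to 1940 and 2627 CPM. Their part in the 3 ratios was not tested. With classes taken from clusters the ratio of Ccl3 was -0.20 (-0.40 to 0.00).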

How the results depend on the processing

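No paired analysis was possible because each genotype is 1 library and no result comes from a test. The number of members past 2-fold in macrophage or monocyte-like cells was 1, Ccl12, in the report and under all 8 alternatives. In connective-like cells it was 0, except that 1, Ccl4, was past 2-fold among cells with at most 2000 genes. The share of all genes past 2-fold in those cells is not given here. Over all connective-like cells Ccl4 was only at 4.54 CPM in control and 15.9 in Smo cKO. In Smo cKO 18 cells held 46.4% of it, with hematopoietic tracers at 581 CPM against 51.1 in the others, and carry-over was not tested. Of the 10 log2 ratios in leading classes, leaving out cells with more than 2000 genes turned Ccl7 in connective-like cells to -0.18. Clusters turned Ccl8 in macrophage or monocyte-like cells to -0.04. Thinning to 1000 UMIs turned Ccl8 to -0.04 and Ccl5 in NK-like cells from -0.31 to 0.28. Ccl11 in mural-like cells, with an interval that includes 0 in the report, also fell below 0. It was at -0.12 (-0.44 to 0.21) with the stricter gate and -0.09 (-1.18 to 1.03) with thinning. The cause was not tested. Within their counting intervals stayed 10 of 10 ratios without the mitochondrial filter and without shared barcodes (added after seeing the data), 8 of 10 with the stricter gate and with median scaling, 3 of 9 with clusters and 2 of 10 each with thinning and with the gene limit, where the largest shift was 1.48 (Ccl11 in mural-like cells, 0.12 to -1.36). Depth limits small classes: in 13 control NK-like cells the exact interval of a gene without a UMI, such as Ccl12, reaches 122 CPM.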

Other observations

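Macrophage or monocyte-like cells that met no subset rule (483 in control, 576 in Smo cKO) had larger ratios of Ccl12, Ccl4 and Ccl8 than the Mrc1 Folr2 and Arg1 Spp1 Gpnmb subsets. Ccl12 was at 91.0 and 409 CPM in them (log2 ratio 2.17, 1.93 to 2.42), Ccl4 at 264 and 1023 CPM (1.95, 1.81 to 2.10) and Ccl8 at 110 and 359 CPM (1.71, 1.48 to 1.94), whereas Ccl9 was at 356 and 374 CPM (0.07, -0.08 to 0.22).

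The 1289 control and 1369 Smo cKO cells in no class had Ccl2 at 812 and 1666 CPM and Ccl7 at 486 and 750 CPM. They held 9.26% and 14.8% of Ccl2 UMIs.

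In muscle-like cells 3 UMIs of Ccl12 were counted among 363 control cells and 143 among 648 Smo cKO cells. In endothelial-like cells Ccl5 had 4 UMIs in 79 control and 98 in 87 Smo cKO cells, with thinned detection of 1.30% and 1.18%.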
